A study of Homo sapiens with 4 samples.

Results

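The genes described here carry cells from cystine uptake to the synthesis, recycling and use of glutathione, with the supply of NADPH at the end. They are 9 of the 57905 genes counted, chosen by name: *SLC7A11*, *SLC3A2*, *GCLC*, *GCLM*, *GSS*, *GSR*, *GPX1*, *GPX4* and *ME1*. The cells were U87MG, an established human line from a glioblastoma, which the labels call wild type, and their polyadenylated RNA was sequenced in 2 samples per group. Chaetocin cells received the compound, dissolved in DMSO, at 50 nM for 24 h, and control cells were left untreated, so chaetocin and its solvent cannot be told apart. Chaetocin is a fungal metabolite that inhibits histone methyltransferases and the enzyme thioredoxin reductase-1, and the comparison asks how glutathione genes respond to it. The study describes the samples as duplicates of cells seeded in plates, without saying whether these were independent cultures, so p-values measure the spread between these samples, which may be technical.

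Cells take up cystine, the oxidized dimer of cysteine, through an exchanger that gives out glutamate in return. Cysteine is then joined to glutamate by glutamate-cysteine ligase and to glycine by glutathione synthetase. Peroxidases oxidize the resulting glutathione when they remove peroxides, and glutathione reductase restores it with NADPH. Several of these genes are textbook targets of NRF2, a transcription factor that binds antioxidant response elements, and the cystine exchanger is also a textbook target of ATF4, a factor of the amino acid stress response. Glioma cells are known for high activity of this exchanger.

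Total counts ranged from 21241984 to 32590479 per sample, and 3 counts, the limit that a count of 0 allows, amount to 0.0921 to 0.141 CPM, the count for each 1000000 counts of a library. PCR reads are not independent molecules, so this limit covers counting error alone. The library sizes behind CPM values were normalized by TMM, which assumes that most genes do not change. Genes with low counts were removed and 16416 genes were tested with edgeR's quasi-likelihood test, of which 1.11% were called higher and 0.743% were called lower with chaetocin at an adjusted p under 0.05. Of the glial and glioma markers, *VIM* and *CD44* were abundant, with at least 28332 reads in every sample, whereas *SOX2* and *S100B* had 0 reads in both control samples and *GFAP* had between 10 and 25 reads per sample. The 8 markers of this class summed to between 4794 and 5499 CPM in control cells and to between 1973 and 3222 CPM with chaetocin, with none past the test. The 6 leukocyte markers summed to between 0.205 and 0.209 CPM in control cells and to between 2.11 and 2.16 CPM with chaetocin, where *PTPRC* (15 and 27 reads, edgeR adjusted p = 0.0412) and *ITGAM* (24 and 29 reads, edgeR adjusted p = 0.0341) passed the test as higher, and *CD3E* had 0 reads in every sample. The 2 matched endothelial markers summed to between 0.861 and 1.29 CPM in control cells and between 2.11 and 3.15 CPM with chaetocin, and the 3 epithelial ones to between 0.942 and 0.974 CPM and between 1.75 and 2.53 CPM, with none past the test and *KRT5* at 0 reads in every sample. The part of these marker classes in the results was not tested.

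Since *SLC3A2* and *GCLM* rose and *GCLC*, the partner of *GCLM*, did not pass the test, the promoters of these genes and of the nearly silent *ME1* are shown. RefSeq windows of 250 bases before a gene's start (GRCh38.p14) were used for 6 of the 9 genes, with 3 alternative starts each for *SLC3A2* and *GPX4*. They were searched on both strands for the antioxidant response element core TGACNNNGC, the AP-1 site TGANTCA, which can overlap it, and TGATGNAA, an element bound by ATF4 with C/EBP factors. Of 35116 such windows of all genes, 10.9% held the first, 6.57% the second and 3.14% the third. The stretches below run from 150 to 21 bases before the start, with matches in capitals.
SLC3A2, start 3, chr11:62881549-62881678, plus strand: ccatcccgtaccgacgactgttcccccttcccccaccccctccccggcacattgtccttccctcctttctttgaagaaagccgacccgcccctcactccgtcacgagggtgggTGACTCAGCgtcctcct
GCLM, chr1:93909451-93909580, minus strand: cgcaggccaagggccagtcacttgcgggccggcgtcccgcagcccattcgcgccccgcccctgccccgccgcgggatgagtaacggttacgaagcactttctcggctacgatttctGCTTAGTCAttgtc
GCLC, chr6:53545122-53545251, minus strand: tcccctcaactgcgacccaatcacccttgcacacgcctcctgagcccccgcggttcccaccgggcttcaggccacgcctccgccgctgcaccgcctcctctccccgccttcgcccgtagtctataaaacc
ME1, chr6:83431072-83431201, minus strand: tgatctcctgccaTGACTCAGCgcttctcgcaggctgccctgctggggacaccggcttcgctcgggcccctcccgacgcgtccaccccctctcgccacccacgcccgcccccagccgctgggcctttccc

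The antioxidant element core began 37 bases before the third start of *SLC3A2* and 137 bases before the start of *ME1*, each time as TGACTCAGC, which also holds the AP-1 letters. In *GCLM* it began 34 bases before the start and read on the other strand, as GCTTAGTCA. The windows of *GCLC*, *GPX1* and *GPX4* and the other starts of *SLC3A2* held none of the 3 motifs, which says only that these letters are not in those windows. Annotated exons fill 247 of the 250 bases of the *GPX1* window and 235 and 131 bases of the third and the second window of *GPX4*, so these lie largely within transcribed sequence. A match is a run of letters and was not tested as a binding site. The ATF4 element was in no window of the 6 genes. This does not cover *SLC7A11*, *GSS* and *GSR*, which were not searched.

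Along the pathway, the genes of cystine uptake and the modifier subunit of glutamate-cysteine ligase rose with chaetocin, by between 1.77-fold and 2.33-fold. The other tested genes did not pass the test. At an adjusted p under 0.05, 3 of the 8 tested genes were higher and 0 were lower, against 1.11% and 0.743% of all genes tested. At an unadjusted p under 0.05, 5 were higher, against 10.9% of all genes tested, and 0 were lower, against 9.43%. With DESeq2, 3 were higher, against 2.35% of all genes it tested, and 0 were lower, against 2.93%. Both chaetocin samples lay above both control samples for 6 genes, against 26.8% of all genes tested, and below them for 1, against 26%. The median log2 fold change (log2FC, chaetocin over control) was 0.63 over the 8 genes and 0.01 over all genes tested. Without chaetocin sample 2 the median of the 8 genes was 0.31, and without chaetocin sample 1 it was 0.84. With total counts and no normalization factors these medians were 0.80 and 0.17, so the whole scale moved up with the members. Bulk RNA cannot tell fewer cells of a type from less RNA per cell. *ME1* was not tested because of its low counts.

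**Figure D1:**
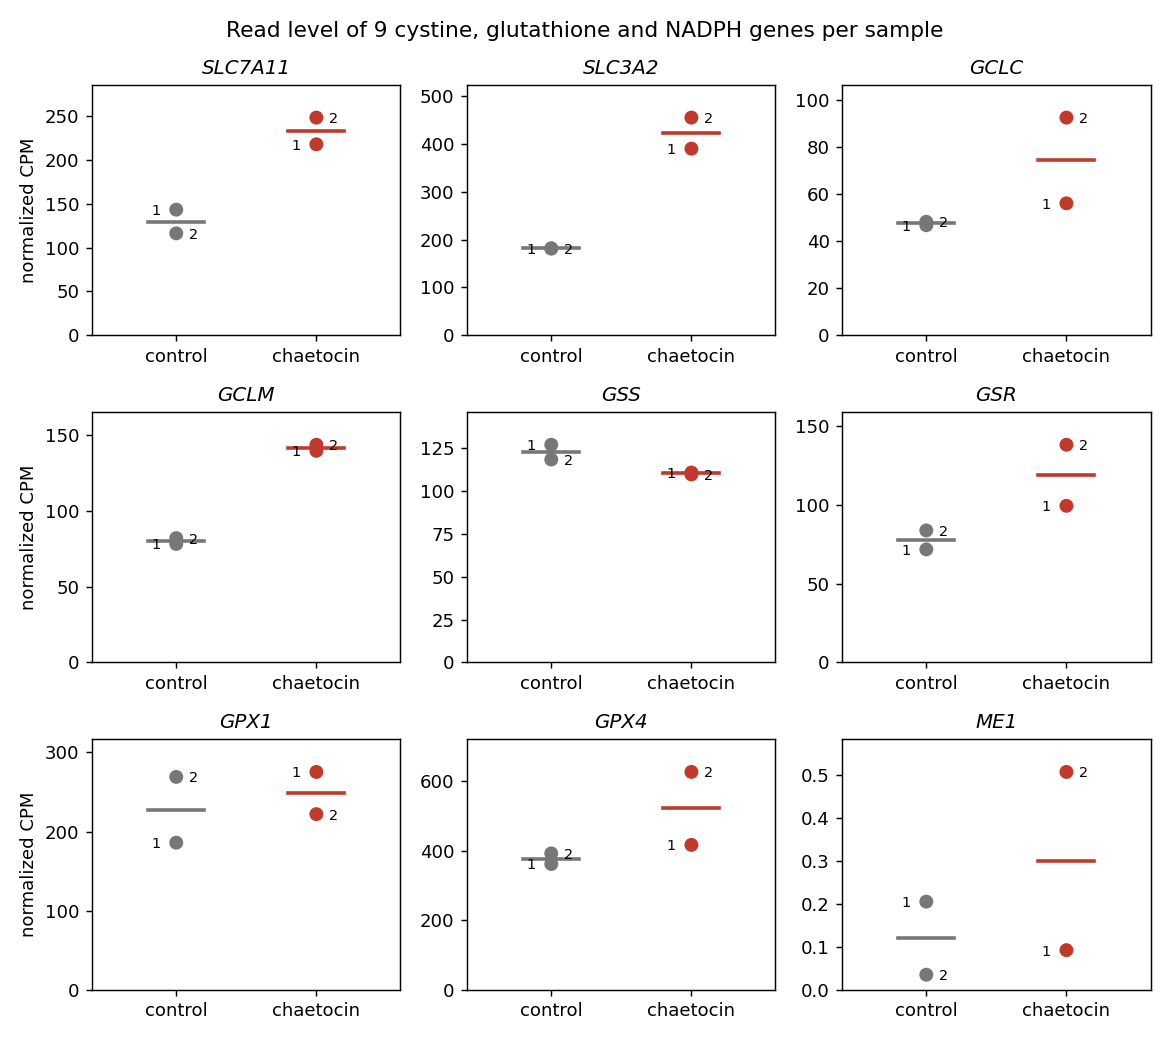
Normalized CPM (vertical axis, from 0) of each of the 9 genes in the 2 control samples (grey) and the 2 chaetocin samples (red), with sample numbers beside the points and bars at the group means. Chaetocin samples lie above the controls for *SLC7A11*, *SLC3A2*, *GCLC*, *GCLM*, *GSR* and *GPX4* and below them for *GSS*, whereas *GPX1* and *ME1*, the latter below 1 CPM, overlap between groups.

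The cystine exchanger is made of the transporting chain xCT, encoded by *SLC7A11*, and the heavy chain 4F2hc, encoded by *SLC3A2*, which also carries other amino acid transporters to the cell surface. *SLC3A2* (ENSG00000168003, chromosome 11 of GRCh38, 62856102 to 62888875) had 182 and 181 CPM in control samples 1 and 2 and 389.8 and 455 CPM in chaetocin samples 1 and 2. The control samples were nearly equal, and both chaetocin samples were far above them. The mean rose from 181 ± 0.5005 CPM to 422 ± 45.9 CPM (SD, 2 samples per group), giving a log2FC of 1.22 (standard error, SE, 0.16, 95% interval 0.85 to 1.59, edgeR adjusted p = 0.0266). By p-value it ranked 32 among all genes tested.

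*SLC7A11* (ENSG00000151012, chromosome 4, 138164097 to 138242349) had 143 and 116 CPM in untreated cells, against 218 and 248 CPM in chaetocin cells. Both chaetocin samples were higher than both control samples, which differed from each other more than those of *SLC3A2*. The mean rose from 129.7 ± 19.1 CPM to 233 ± 21.5 CPM (SD, 2 samples per group), giving a log2FC of 0.85 (SE 0.17, 95% interval 0.46 to 1.23). Its adjusted p of 0.0496 (edgeR's quasi-likelihood test) lies just under the threshold, and it was 0.0512 with DESeq2 size factors, 0.0551 after downsampling and 0.0562 when at least 10 counts were asked for in every sample. The log2FC was between 0.84 and 0.87 in these 3 settings. Without control sample 1 it was 0.99 (edgeR adjusted p = 0.0824), and without control sample 2 it was 0.69 (edgeR adjusted p = 0.333). The call held with DESeq2 (DESeq2 adjusted p = 0.00157) and without the filter on low counts (edgeR adjusted p = 0.000243). Without chaetocin sample 1 the log2FC was 0.94, and without chaetocin sample 2 it was 0.74. An antisense gene, *SLC7A11-AS1*, shares 8.97% of the exon bases of *SLC7A11*. It had between 5 and 25 reads per sample, against at least 3338 for *SLC7A11*.

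Within each sample, *SLC7A11* can be set against *SLC3A2* as a ratio of counts per kb of exon. The ratio was 0.423 and 0.344 in untreated cells, against 0.2999 and 0.293 with chaetocin. It was thus lower in both chaetocin samples, to 0.777 of the control level as a ratio of geometric means, with an exact permutation p of 0.333 (two-sided, n = 2 per group), the smallest that this design allows.

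**Figure D2:**
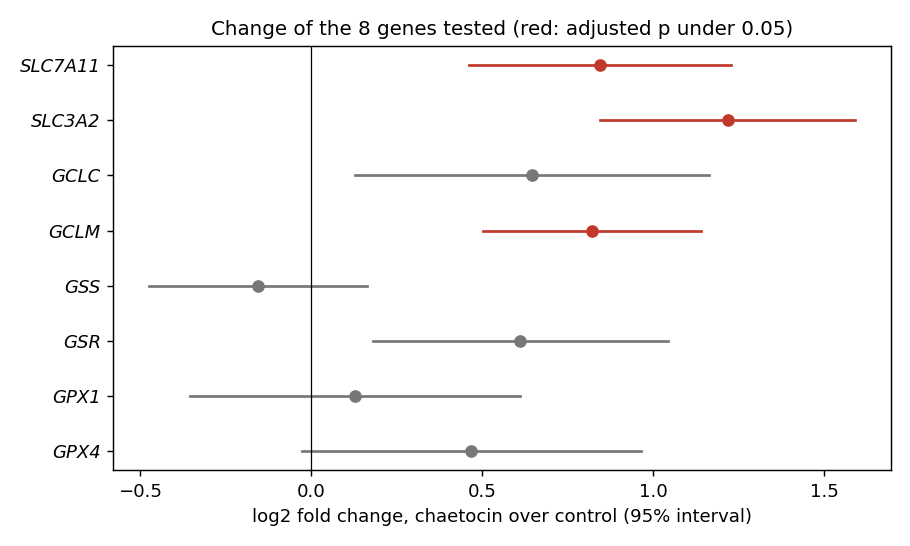
Log2 fold change of chaetocin over control (horizontal axis) for the 8 tested genes in pathway order from top to bottom, as points with 95% intervals from the edgeR fit. The 3 genes in red, *SLC7A11*, *SLC3A2* and *GCLM*, had an adjusted p under 0.05.

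Glutamate-cysteine ligase catalyses the rate-limiting step of glutathione synthesis. Its modifier subunit, encoded by *GCLM*, raises the affinity of the catalytic subunit for glutamate and eases its inhibition by glutathione. *GCLM* (ENSG00000023909, chromosome 1, 93885205 to 93909456) had 78.3 and 82.1 CPM in untreated cells, against 139.8 and 144 CPM in chaetocin cells. The spread within both groups was small beside the distance between them. The mean rose from 80.2 ± 2.70 CPM to 142 ± 2.82 CPM (SD, 2 samples per group), giving a log2FC of 0.82 (SE 0.14, 95% interval 0.50 to 1.14, edgeR adjusted p = 0.0341). The adjusted p was 0.237 without control sample 1 and 0.124 without control sample 2, at log2FC values of 0.77 and 0.85.

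The catalytic subunit is encoded by *GCLC* (ENSG00000001084, chromosome 6, 53497341 to 53616970), which had 46.9 and 48.3 CPM in untreated cells, against 56.2 and 92.7 CPM in chaetocin cells. Chaetocin sample 1 stood a little above the controls, and chaetocin sample 2 stood well above them. The log2FC of 0.65 (SE 0.23, 95% interval 0.13 to 1.16) did not pass the test (edgeR adjusted p = 0.163). It was 0.96 without chaetocin sample 1 and 0.23 without chaetocin sample 2. Exons of the neighbouring RNA genes *AL033397.1* and *AL033397.2* overlap those of *GCLC*, with at most 24 reads each in any sample against at least 1144 for *GCLC*.

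The ratio of *GCLM* to *GCLC* per kb of exon was 2.67 and 2.71 in untreated cells, against 3.97 and 2.48 in chaetocin samples 1 and 2. One chaetocin sample was above the controls and the other below, and the ratio did not differ beyond the spread (1.17 of the control level by geometric means, exact permutation p = 1, two-sided, n = 2 per group). The order of the subunits' changes was thus opposite in the 2 chaetocin samples.

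Glutathione synthetase, encoded by *GSS* (ENSG00000100983, chromosome 20, 34928433 to 34956027), adds glycine in the last step of synthesis. It had 127 and 118 CPM in untreated cells, against 111 and 109.6 CPM in chaetocin cells. Both chaetocin samples were slightly below both control samples, with a log2FC of -0.15 (SE 0.14, 95% interval -0.47 to 0.16, edgeR adjusted p = 0.58) that turned to 0.01 when total counts were used without normalization factors. The upper end of this interval lies below the estimates for *SLC7A11*, *SLC3A2* and *GCLM*, although the differences between genes were not tested.

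**Figure D3:**
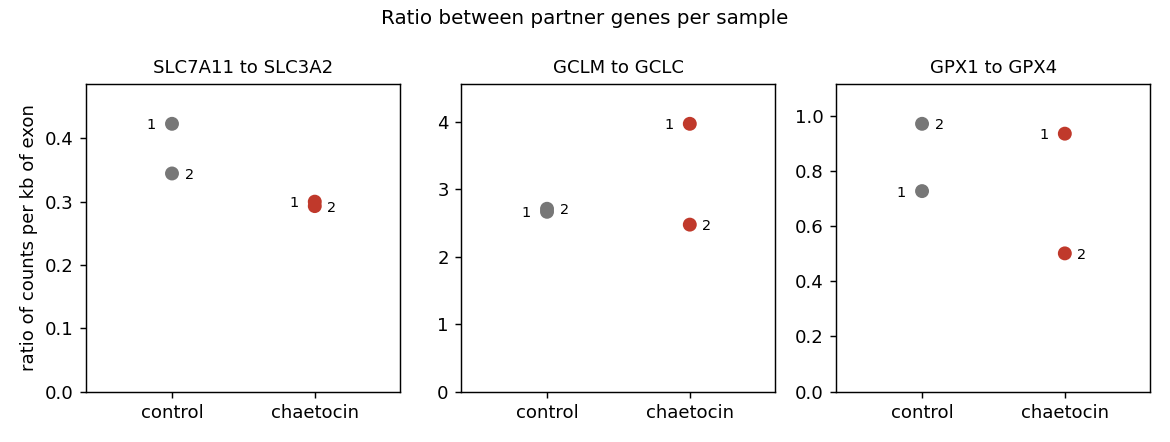
Ratio of counts per kb of exon (vertical axis, from 0) between partner genes in each control (grey) and chaetocin (red) sample, numbered 1 and 2. *SLC7A11* to *SLC3A2* is lower in both chaetocin samples, and for *GCLM* to *GCLC* and *GPX1* to *GPX4* the chaetocin samples lie apart from each other.

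Glutathione reductase, encoded by *GSR* (ENSG00000104687, chromosome 8, 30678061 to 30727999), returns oxidized glutathione to its reduced form. It had 71.8 and 83.8 CPM in untreated cells, against 99.4 and 138 CPM in chaetocin cells. Both chaetocin samples were above the controls, the second more so, and the log2FC of 0.61 (SE 0.19, 95% interval 0.18 to 1.04) did not pass the test (edgeR adjusted p = 0.126). Without chaetocin sample 1 it was 0.83, and without chaetocin sample 2 it was 0.35.

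Of the glutathione peroxidases, both listed members are selenoproteins. *GPX4* (ENSG00000167468, chromosome 19, 1103926 to 1106791), which reduces lipid peroxides within membranes, had 361 and 391.7 CPM in untreated cells, against 416 and 626 CPM in chaetocin cells. Chaetocin sample 1 lay close to the controls, and the log2FC of 0.47 (SE 0.22, 95% interval -0.03 to 0.96) did not pass the test (edgeR adjusted p = 0.27). Without chaetocin sample 1 it was 0.74, and without chaetocin sample 2 it was 0.14. *GPX1* (ENSG00000233276, chromosome 3, 49357171 to 49358600), which reduces hydrogen peroxide in the cytosol, had 186 and 269 CPM in untreated cells, against 275 and 222 CPM in chaetocin cells. The groups overlapped, and the log2FC of 0.13 (95% interval -0.35 to 0.61) turned negative without control sample 1 (-0.13) or chaetocin sample 1 (-0.03). Reads on the *GPX1* pseudogenes *GPX1P1* and *GPX1P2* numbered at most 12 per sample. The ratio of *GPX1* to *GPX4* per kb of exon was 0.726 and 0.97 in untreated cells, against 0.934 and 0.501 with chaetocin (exact permutation p = 0.667, two-sided, n = 2 per group).

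Malic enzyme 1, encoded by *ME1* (ENSG00000065833, chromosome 6, 83210389 to 83431071), makes NADPH in the cytosol. It was close to silent in these cells, with 5 and 1 reads in untreated cells, against 2 and 18 in chaetocin cells. The chaetocin samples lay on either side of control sample 1, and the gene did not pass the filter on low counts, so it was not tested and no fold change is given.

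Of the 8 tested genes, 6 were higher in chaetocin sample 2 than in chaetocin sample 1 (75%), against 50.2% of all genes tested. The log2 difference between these samples was 0.72 for *GCLC*, 0.59 for *GPX4* and 0.47 for *GSR*, against 0.22 for *SLC3A2*, 0.19 for *SLC7A11* and 0.04 for *GCLM*. In each of the 3 genes that rose, the chaetocin samples lay closer to each other than to either control sample. *GPX1* and *GSS* had differences of -0.31 and -0.01. Between the control samples the log2 difference was largest for *GPX1* (0.53) among the 8 genes, followed in size by *SLC7A11* (-0.30).

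In level per kb of exon, *GPX4* (186.5 ± 10.7 CPM per kb) and *GPX1* (159 ± 41.2 CPM per kb, SD, n = 2) led in control cells, and these neighbours in the order did not differ beyond their spread. *SLC3A2* followed at 35.04 ± 0.0967 CPM per kb, then *GSR* (20.7 ± 2.27) and *GSS* (19.9 ± 0.983) and, with levels also within their spread, *GCLM* (14.8 ± 0.499) and *SLC7A11* (13.4 ± 1.98). *GCLC* was lowest of the tested genes at 5.51 ± 0.119 CPM per kb. With chaetocin the level of *GCLM* was 26.2 ± 0.521 CPM per kb and that of *SLC7A11* was 24.2 ± 2.23, both above *GSS* at 17.8 ± 0.117. The levels use exon lengths summed over all annotated transcripts, which may exceed the transcripts present in these cells.

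Other genes of cystine supply, glutathione turnover and NADPH, together with genes of NRF2 and ATF4 control and of lipid peroxidation, were taken from 11 lists. Of 120 tested genes outside the 9, 1 was higher and 1 was lower, with a median log2FC of -0.03, and these counts are near the 1.11% and 0.743% of all genes tested. With DESeq2, 7 of the 120 were higher and 7 were lower, shares above the 2.35% and 2.93% of all genes it tested. *SLC1A3* and *MAFG*, the genes called by edgeR, were also called under every alternative tried. Of 40 named genes of the lists outside the 9, the log2FC of 23 moved by over 1.5 times or turned when 1 sample was left out, for 15 of them without chaetocin sample 1 and for 16 without chaetocin sample 2.

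Among 12 tested genes of cystine and amino acid transport, edgeR called 0 higher and 1 lower (2 and 4 at an unadjusted p under 0.05), and DESeq2 called 0 higher and 3 lower (*SLC1A3*, *SLC38A2* and *SLC38A1*). *SLC1A3*, the glial glutamate transporter EAAT1, had 53.4 and 49.6 CPM in untreated cells, against 23.5 and 20.9 CPM in chaetocin cells, a log2FC of -1.22 (SE 0.16, edgeR adjusted p = 0.0266). It fell while *SLC7A11*, whose product gives out glutamate, rose. *SLC38A2*, a carrier of neutral amino acids, had a log2FC of -0.73 (edgeR adjusted p = 0.0808, DESeq2 adjusted p = 0.00197). *SLC7A7*, another light chain partner of *SLC3A2*, had 8 and 23 reads in untreated cells, against 39 and 80 in chaetocin cells (edgeR adjusted p = 0.0895). The other tested genes of the SLC7 family on this list had log2FC values between -0.44 and 0.53, and none passed the test. *SLC1A2* did not pass either (edgeR adjusted p = 0.169).

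In the methionine cycle and transsulfuration, the other source of cysteine, 0 of 13 tested genes passed in either direction with edgeR or DESeq2 (0 higher and 2 lower at an unadjusted p under 0.05), and the median was -0.08. *CTH*, which releases cysteine from cystathionine, had 21.2 and 16.7 CPM in untreated cells, against 20.4 and 13.7 CPM in chaetocin cells. *CBS*, which makes cystathionine, had 4.67 and 2.65 CPM in untreated cells, against 3.36 and 0.788 CPM in chaetocin cells. In both genes the groups overlapped. The log2FC was -0.49 for *MPST* and -0.37 for *MTR*, and neither passed the test.

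In the gamma-glutamyl cycle, *GCLM* alone passed among 11 tested genes with edgeR (2 higher and 2 lower at an unadjusted p under 0.05), and the median over that list, which holds *GCLC*, *GCLM* and *GSS*, was -0.15. *CHAC1*, which degrades glutathione and is a target of ATF4, had 33.1 and 24.6 CPM in untreated cells, against 30.2 and 10.8 CPM in chaetocin cells, so the groups overlapped. *GGT5* had a log2FC of -1.99 at 19 and 16 reads in untreated cells, against 6 and 3 in chaetocin cells (edgeR adjusted p = 0.168).

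Of the glutathione peroxidase family 4 of 8 genes were tested and edgeR called 0 in either direction (0 higher and 2 lower at an unadjusted p under 0.05), whereas DESeq2 called *GPX3* lower. *GPX3*, the secreted member, had 3.81 and 1.77 CPM in untreated cells, against 0.965 and 0.394 CPM in chaetocin cells, a log2FC of -2.09 (edgeR adjusted p = 0.0889, DESeq2 adjusted p = 0.0266). *GPX8* had a log2FC of -0.36. Among 16 tested glutathione S-transferases and related enzymes edgeR called 0 in either direction (1 higher and 0 lower at an unadjusted p under 0.05), with 11 above 0, against 8357 of 16416 genes tested, and a median of 0.26, and DESeq2 called *PTGES* higher. The largest value there was 1.03 for *PTGES*, a prostaglandin E synthase of that superfamily (edgeR adjusted p = 0.0831, DESeq2 adjusted p = 0.00717), and *MGST2*, *GSTM3* and *GSTO2* had at most 68 reads in any sample. Counts of S-transferases with close paralogs can be split between copies and are uncertain.

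Among glutaredoxins and glyoxalases edgeR called 0 of 9 tested genes (1 higher and 2 lower at an unadjusted p under 0.05) and DESeq2 called *GLRX* lower (DESeq2 adjusted p = 0.0483), with edgeR log2FC values of -0.55 for *GLRX*, 0.54 for *HAGH*, -0.45 for *ESD* and 0.42 for *GLRX2*. That of *HAGH* was 0.25 without chaetocin sample 1, and that of *GLRX2* was 0.14 without chaetocin sample 2. The 6 tested genes of glutathione and conjugate export lay between -0.27 (*ABCC4*) and 0.15 (*ABCC2*), with -0.06 for *ABCC1*, and 0 passed with edgeR, with DESeq2 or at an unadjusted p under 0.05. For *ABCC1* the direction turned with upper-quartile factors (0.02) and with total counts (0.11).

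In the list of NADPH production 0 of 21 tested genes passed in either direction with edgeR or DESeq2 (3 higher and 3 lower at an unadjusted p under 0.05), and the median was -0.01. *ALDH1L2* and *MTHFD1L*, mitochondrial enzymes of folate metabolism, had log2FC values of -0.89 and -0.72. Without chaetocin sample 2 these were -0.49 and -0.32, and without chaetocin sample 1 they were -1.43 and -1.29. *SHMT1*, a cytosolic enzyme of the same metabolism, had 0.51. *ALDH1L1* had at most 37 reads in any sample.

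**Figure D4:**
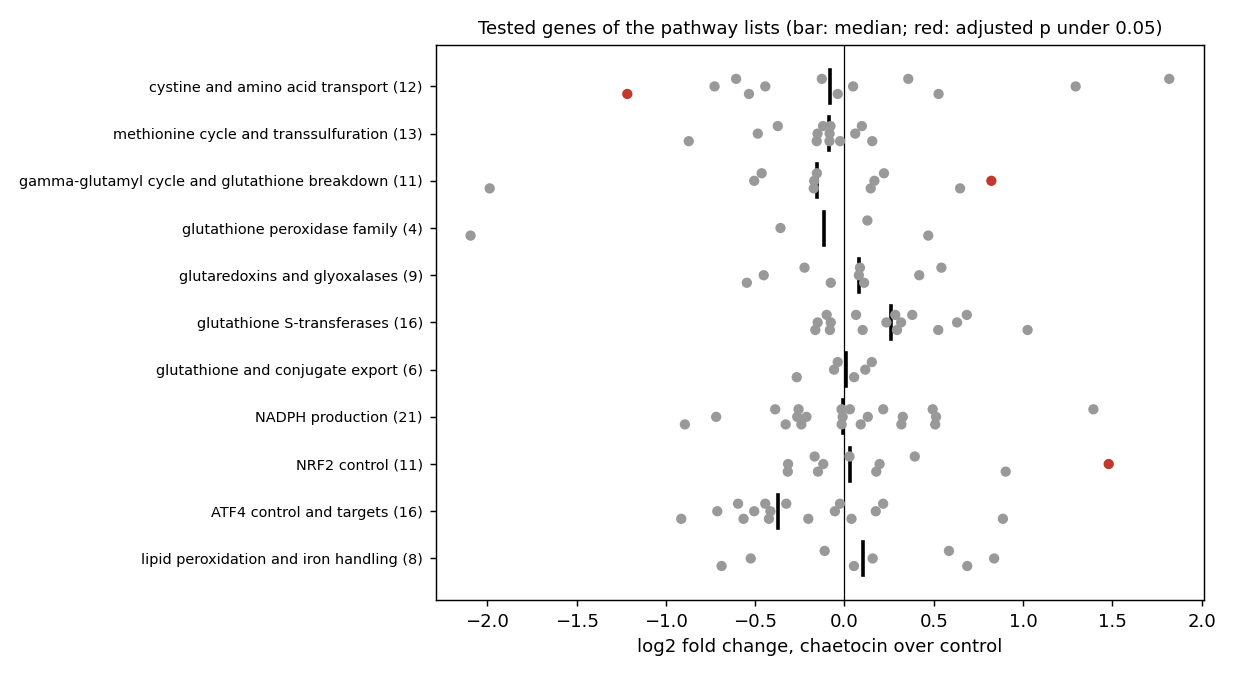
Log2 fold change of chaetocin over control (horizontal axis) of each tested gene in the 11 lists, with the number of tested genes in brackets, a black bar at the median and genes with an adjusted p under 0.05 in red. The red points are *SLC1A3*, *GCLM* and *MAFG*.

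Of the 11 genes of NRF2 control, all tested, edgeR called *MAFG* higher and 0 lower (3 and 0 at an unadjusted p under 0.05), and DESeq2 called *MAFG* and *SQSTM1* higher. *MAFG* encodes a small MAF protein, the partner with which NRF2 binds DNA, and had 77.1 and 97.4 CPM in untreated cells, against 233.5 and 253 CPM in chaetocin cells, a log2FC of 1.48 (SE 0.17, edgeR adjusted p = 0.0173). The transcript of NRF2 itself, *NFE2L2*, had a log2FC of -0.32 (edgeR adjusted p = 0.247), and that of its inhibitor *KEAP1* had one of 0.39 (edgeR adjusted p = 0.204). *SQSTM1*, which binds KEAP1, had 467 and 707 CPM in untreated cells, against 766 and 1429 CPM in chaetocin cells (edgeR adjusted p = 0.166, DESeq2 adjusted p = 0.0291).

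Of the 16 genes of ATF4 control and its targets edgeR called 0 in either direction (1 higher and 3 lower at an unadjusted p under 0.05) and DESeq2 called *ATF3* higher, 12 were below 0, against 8059 of 16416 genes tested, and the median was -0.37. *ATF3* had 15.4 and 12.7 CPM in untreated cells, against 26.3 and 25.6 CPM in chaetocin cells (log2FC 0.89, edgeR adjusted p = 0.0503, DESeq2 adjusted p = 0.00818). *TRIB3*, a target of ATF4, had 30.4 and 23.4 CPM in untreated cells, against 20.0 and 8.78 CPM in chaetocin cells, and *VLDLR* and *DDIT4* had log2FC values of -0.71 and -0.60. Without chaetocin sample 2 these were -0.34 and -0.051, and without chaetocin sample 1 they were -1.23 and -1.49.

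Of 8 tested genes of lipid peroxidation and iron handling 0 passed in either direction with edgeR (3 higher and 2 lower at an unadjusted p under 0.05), whereas DESeq2 called 3 higher (*GCH1*, *FTL* and *FTH1*) and 2 lower (*ACSL4* and *TFRC*). The ferritin chains *FTL* and *FTH1* had log2FC values of 0.69 and 0.58, and *GCH1*, which starts the synthesis of tetrahydrobiopterin, had 0.84 (edgeR adjusted p = 0.0719). *ACSL4*, which loads polyunsaturated fatty acids into phospholipids, had 352 and 395 CPM in untreated cells, against 254 and 209.9 CPM in chaetocin cells (log2FC -0.69, edgeR adjusted p = 0.0788).

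**Figure D5:**
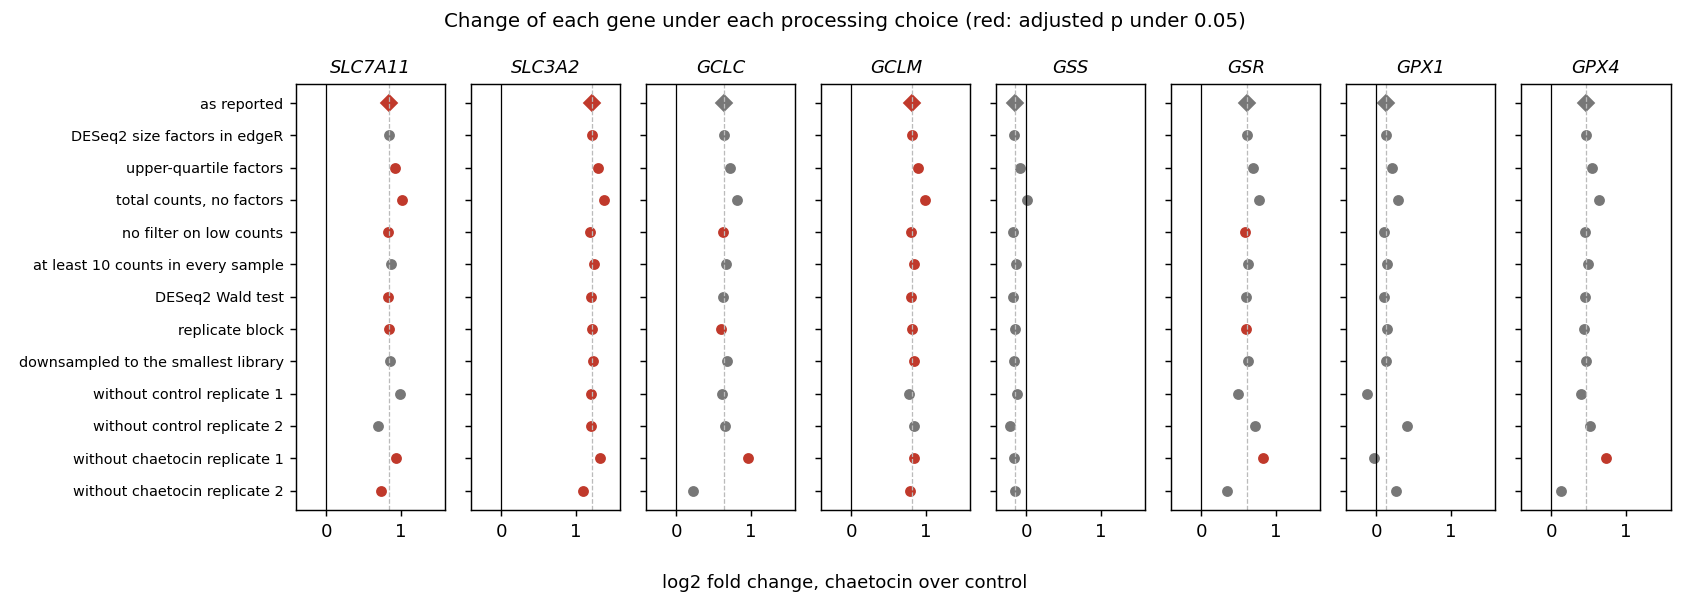
Log2 fold change of chaetocin over control (horizontal axis) of each of the 8 tested genes as reported (diamond) and under 12 other processing choices (circles, rows), in red where the adjusted p was under 0.05. *SLC3A2* is red in every row, *GSS* and *GPX1* are red in none, and *SLC7A11* changes between red and grey.

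Across these choices the log2FC of *SLC3A2* lay between 1.095 and 1.39, and its adjusted p was at most 0.0362 (edgeR's quasi-likelihood test, and DESeq2). That of *GCLM* lay between 0.77 and 0.99 and that of *SLC7A11* between 0.69 and 1.01, above 0 in every case. The values of *GCLC* ranged from 0.23 to 0.96, of *GSR* from 0.35 to 0.83 and of *GPX4* from 0.14 to 0.74, the ends of each range being set by leaving out chaetocin sample 2 or chaetocin sample 1.

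The genes whose pattern over the 4 samples was nearest to a gene that rose, by root-mean-square distance of centred log2 CPM, are given as a description. They were *AL355574.1* (0.0199), *CBX7* (0.0315) and *ZNF793* (0.0339) for *SLC7A11*. For *SLC3A2* they were *LINC00601* (0.0207), *NEURL1B* (0.0263) and *GEMIN8P4* (0.0349), and for *GCLM* they were *TMEM170A* (0.0181), *ALDH16A1* (0.0192) and *AC068282.1* (0.021). With 4 samples, close patterns of this kind are common among 16416 genes.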

How the data were processed

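Polyadenylated RNA of the 4 samples was sequenced on an Illumina instrument. Each sample has a table of whole-number counts for every gene as deposited by the authors, not normalized. How reads were counted, and whether strand was used, is not given in the sources used here, so antisense reads may be included. The submitters' processing notes name cutadapt, TopHat, TopHat2 and SAMtools and the build GRCh37. Symbols, positions and exon lengths came from GENCODE v29 on GRCh38 by Ensembl identifier (52338 of 57905 matched), and promoters from RefSeq by symbol.

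Groups came from the sample labels. Genes were filtered with filterByExpr (minimum count of 10) and normalized by TMM (factors from 0.942 to 1.09). They were compared with edgeR 4.0.16 in R 4.3.3 (robust quasi-likelihood test, Benjamini-Hochberg adjustment over 16416 genes, threshold 0.05). On simulated counts this test called 46.4% of genes changed 2-fold and 88.9% of those changed 4-fold. DESeq2 1.42.0, the study's tool, was an alternative, as were other factors and filters, downsampling, a replicate block and leaving out each sample. Standard errors were derived from the F statistic, and ratios were compared by an exact permutation test. Replicates of a group differed by more than sampling noise.

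The 9 genes and the lists were chosen with earlier results of these data known. The genes named are these 9, the called genes of each list and otherwise its largest changes, up to 4, and the 3 nearest patterns to each gene that rose. Values of some listed genes are not reported here.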

Additional observations from a re-analysis of the deposited data

How the results depend on the processing

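Of 96 log2 fold changes of the 8 tested genes under 12 alternatives, 79 kept their direction and their side of the threshold, 7 lost the call, 7 gained it and 3 reversed. *SLC3A2* was called under all 12. Precision is limited by the 2 samples per group, and where a call changed the cause was not tested.

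The 3 calls among the 9 genes were 5 without a filter on low counts, 5 at an unadjusted p under 0.05, and between 1 (without control sample 1, or control sample 2) and 6 (without chaetocin sample 1) when 1 sample was left out. A lone sample was then assumed to vary like the other group. The number of genes tested changed, from 16416 to 31692 without the filter and to 14486 with at least 10 counts in every sample. It was 18027 and 17399 without control samples 1 and 2, and 17644 and 16819 without chaetocin samples 1 and 2. Counts for the 9 genes are therefore to be read beside those over all genes in the same setting, given next. The 182 genes called higher overall were 360 with total counts, 787 without the filter, 114 with at least 10 counts asked of every sample, 385 with DESeq2 and 1791 at an unadjusted p under 0.05, and between 215 and 1332 with 1 sample left out. The 122 called lower were 73, 759, 80, 481 and 1548 in the same order, and between 97 and 1673 with 1 sample left out. The numbers were highest without chaetocin sample 1 (1332 and 1673) and also high without chaetocin sample 2 (712 and 940). Among list genes, 1 was called higher, against 2 with upper-quartile factors, 3 with total counts, 8 without the filter, 7 with DESeq2, 14 at an unadjusted p under 0.05 and between 1 and 16 with 1 sample left out. Of those called lower, 1 became 12 without the filter, 7 with DESeq2, 20 at an unadjusted p under 0.05 and between 1 and 25 with 1 sample left out.

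Replicate numbers were shared between groups, with nothing in the labels to say that they pair samples, and the difference between replicates correlated at r = 0.123 over genes. With the replicate block 5 of the 9 genes were called higher (adding *GCLC* and *GSR*), against 1036 genes higher (6.31%) and 1053 lower (6.41%), with 12 list genes higher and 19 lower.

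Some log2 fold changes turned in direction. With total counts *GSS* was at 0.0094, *CTH* at 0.0014 and *ABCC1* at 0.11, and with upper-quartile factors *ABCC1* was at 0.018. With 1 sample left out *GPX1* ranged from -0.13 to 0.41, *CTH* from -0.47 to 0.10, *CHAC1* from -1.42 to 0.059, *GSTM3* from -0.55 to 2.98, *ABCC2* from -0.079 to 0.345 and *ABCC1* from -0.13 to 0.0037.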
